A study of Saccharomyces cerevisiae with 54 samples.

Results

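The genes described are INO1 and 8 genes around it that make, import or regulate phospholipids and their precursors in Saccharomyces cerevisiae. They were chosen by systematic name: INO1 (YJL153C), ITR1 (YDR497C), CHO1 (YER026C), CHO2 (YGR157W), OPI3 (YJR073C), PSD1 (YNL169C), INO2 (YDR123C), INO4 (YOL108C) and OPI1 (YHL020C), 9 of the 6571 genes in the count table. The choice was made with results of these data in view, and which values were in view is not recorded. The levels and strain differences of these genes are therefore a description. Adjusted p-values beside them place a gene among all genes fitted, and are not independent evidence that the group stands out. All 9 genes passed the filter of at least 3 CPM (counts scaled to library size) in at least 3 libraries, as did 6031 genes in all.

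RNA was sequenced from MMTT, a diploid allele replacement strain that carries MKT1(89G) and TAO3(4477C), and from SS, the wildtype S288c diploid with MKT1(89A) and TAO3(4477G). Both strains share the S288c background, and the methods describe growth in rich glucose medium, then in rich acetate medium, before transfer to sporulation medium of potassium acetate with amino acid supplements. MMTT was made by crossing haploid segregants, so it stands for 1 constructed strain. Times are given here in minutes after transfer, from 0 h through 30, 45, 70, 100, 150, 230 and 340 min to 510 min (8 h 30 min in the labels). Each strain had 3 replicates at each of these 9 times, 54 libraries in all, and the 49 libraries that the study kept are used here, 24 of MMTT and 25 of SS. The labels do not say whether replicates were separate cultures, so the p-values measure the spread between these samples only. They also do not say whether the time points of a replicate came from the same culture. The fits treat all libraries as independent, so averages over time points may look more precise than they are.

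Counts in the 49 libraries totalled 1455002 to 5793502, with a median of 3641591, and the 5 libraries left out held 159701 to 4567237. Markers of sporulation stage differed between the strains, by most at the end of the series. The mean of the 7 middle meiotic markers was higher in every MMTT library than in every SS library at all 9 time points, with 4.07 to 4.43 log2 CPM in MMTT at 0 h, against 3.56 to 3.88 in SS. At 100 min it was 4.62 to 5.38 log2 CPM in MMTT, against 3.71 to 4.11 in SS. It was 9.56 to 10.4 log2 CPM in MMTT libraries at 510 min, against 4.0 to 4.66 in SS libraries. The 7 early meiotic markers averaged 8.92 to 9.27 log2 CPM in MMTT libraries at that time, against 6.48 to 6.84 in SS libraries. They were also apart, with MMTT higher, at each time from 70 min on (6.36 to 6.95 in MMTT at 70 min, against 5.44 to 5.9 in SS), and overlapped at 0 h, 30 min and 45 min. MMTT 45 min replicate 1 had a mean correlation of 0.81 with the other libraries of its group, the lowest of the libraries used. MMTT 45 min replicate 3 had 0.866, and SS 30 min replicates 3 and 2 had 0.895 and 0.898. SS 230 min replicate 1 had 0.915, against 0.95 and 0.953 for the other replicates of that group. These correlations also took in the libraries left out of the fits.

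Inositol is made from glucose 6-phosphate by the Ino1 synthase and joins CDP-diacylglycerol to form phosphatidylinositol, while Cho1, Psd1, Cho2 and Opi3 carry the same CDP-diacylglycerol through phosphatidylserine and phosphatidylethanolamine to phosphatidylcholine. In yeast the genes for these steps are known for a shared upstream element, UASINO, bound by the heterodimer of the helix-loop-helix activators Ino2 and Ino4. The repressor Opi1 is held at the endoplasmic reticulum by phosphatidic acid and enters the nucleus to repress these genes when inositol is plentiful.

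The upstream sequences are shown because the genes for these steps are known for UASINO, whose core is CATGTG. The genes were named from a pathway known for this element, so matches were likely from the start. Their counts below are a description and not independent evidence of a shared element. The 300 bases before each start codon were searched on both strands in the R64 genome of RefSeq, so that CACATG was counted as a match on the opposite strand, and overlapping matches were counted separately. A stretch upstream of INO1, at chrX:136084-136233 on the minus strand, from 300 to 151 bases before the start codon, is printed first, with matches in capitals.
INO1: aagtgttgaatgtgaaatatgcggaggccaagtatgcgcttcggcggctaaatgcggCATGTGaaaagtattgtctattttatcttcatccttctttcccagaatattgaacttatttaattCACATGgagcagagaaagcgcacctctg
For the other genes with a match, 30 bases around it are given on the strand of the gene.
ITR1, chrIV:1445732-1445761, minus strand: ttctgttctcttCACATGcgttaggtatag
ITR1, chrIV:1445671-1445700, minus strand: ccttccccaccgCATGTGaaaaaagctcga
CHO1, chrV:208616-208645, minus strand: cctttgagctttCACATGgacccatctaaa
CHO2, chrVII:802161-802190, plus strand: ttattcccttctCATGTGaagagttcacac
OPI3, chrX:573130-573159, minus strand: tcaatgagagtgCATGTGgaaagttgcacc
OPI3, chrX:573066-573095, minus strand: tatgcaaacccaCACATGcatcgttggttt
PSD1, chrXIV:317894-317923, minus strand: gtaatcacatatCACATGcagggtaaccag
PSD1, chrXIV:317818-317847, minus strand: agcaggcacaagCATGTGgaaaatttgttc
INO2, chrIV:699597-699626, minus strand: ccaagtacaacaCACATGTGaatttttttc
INO4, chrXV:111990-112019, minus strand: aaacaaaatattCACATGtttttctcacct

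CATGTG stood upstream of 8 of the 9 genes, against 7.15% of the 6001 upstream windows of the genome. The exception was OPI1, whose window held no match, which says only that these letters are not in that window. At least 2 matches stood upstream of INO1, ITR1, OPI3, PSD1 and INO2, 5 of the 9 genes, against 0.6% of all windows. In INO2 the pair overlaps on opposite strands. The longer form CATGTGAAA stood upstream of INO1, ITR1 and CHO1, against 0.45% of all windows, and starts 243 bases before the start codon of INO1. These matches are letters in the reference genome and not binding measurements. None of the 9 genes overlaps another gene of the R64 annotation or has a near copy of at least 90% identity over at least 100 bases.

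INO1 RNA was several times higher in MMTT than in SS at all 9 time points. INO1 (chrX:134332-135933, 1602 bases on the minus strand) encodes the inositol 3-phosphate synthase, the first step of inositol synthesis. At 0 h it had 2861, 3476 and 1810 CPM in MMTT libraries, against 609 and 484 CPM in SS libraries. At 30 min the values were 2096, 2093 and 3445 CPM in MMTT, against 484 and 432 CPM in SS. Every MMTT library stood above every SS library at both times, and the MMTT mean was 2716 ± 842 CPM at 0 h (SD, n = 3), against 547 ± 87.8 CPM in SS (SD, n = 2).

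INO1 was lower in both strains over the next time points. At 45 min the 2 MMTT libraries had 539 and 1623 CPM, against 436, 311 and 233 CPM in SS libraries. At 70 min INO1 was at 755, 494 and 554 CPM in MMTT, against 216, 186 and 184 CPM in SS. At 100 min it was at 653, 800 and 786 CPM in MMTT, against 202, 182 and 200 CPM in SS. The strains did not overlap at any of these times.

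The later time points showed higher INO1 in MMTT than its lowest level while SS stayed low until 230 min. INO1 had 955 and 1278 CPM in MMTT at 150 min, against 203, 183 and 189 CPM in SS. At 230 min it had 1533, 1206 and 1574 CPM in MMTT, against 171, 298 and 263 CPM in SS. In the last samples the gap remained. At 340 min there were 1292 and 898 CPM in MMTT, against 315, 453 and 420 CPM in SS. At 510 min there were 1498, 1397 and 1378 CPM in MMTT, against 309, 333 and 378 CPM in SS.

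**Figure D1:**
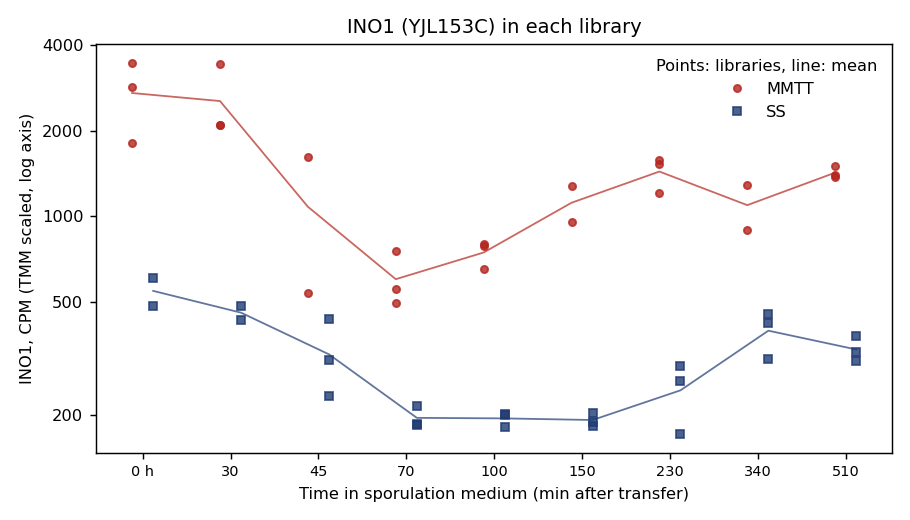
INO1 in CPM with TMM scaling (log axis) against time in sporulation medium, 1 point per library, MMTT as red circles and SS as blue squares, with lines through the group means. All MMTT libraries sit above all SS libraries of the same time point, with a lowest MMTT mean of 601 CPM at 70 min and a lowest SS mean of 192 CPM at 150 min.

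The log2 fold change of INO1, MMTT over SS, was 2.31, 2.47, 1.73, 1.62, 1.94, 2.54, 2.56, 1.47 and 2.07 from 0 h to 510 min. Its standard errors were 0.27 to 0.33, and the adjusted p-values were at most 0.00051 (edgeR quasi-likelihood test, Benjamini-Hochberg). Averaged over the time points the difference was 2.08 ± 0.10 on the log2 scale (SE), 4.22-fold, with an adjusted p of 3.1e-19. By p-value this ranked INO1 at 8 of 6031 genes, and by size at 85. In these bulk libraries fewer cells of a type and less RNA per cell cannot be told apart. The size of the strain difference was not shown to vary with time, with an adjusted p of 0.11 for the strain by time interaction. The middle meiotic markers were higher in MMTT at the same 9 time points, and their part in the differences of INO1 and the other genes was not tested.

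The size at 45 min depended on which MMTT library of that time was kept. Without MMTT 45 min replicate 3 the log2 fold change of INO1 at that time was 0.81, and without MMTT 45 min replicate 1 it was 2.31. INO1 stayed called at each time point when any of the 49 libraries was left out.

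The 18 group means of INO1 fell in an order with all 9 MMTT groups above all 9 SS groups. The neighbours at the border did not separate, since the lowest MMTT group, at 70 min, held 494 to 755 CPM and the highest SS group, at 0 h, held 484 to 609 CPM. Among neighbours in that order, libraries separated between MMTT 30 min and MMTT 230 min and between MMTT 510 min and MMTT 150 min. The only other neighbours without overlap were SS 0 h and SS 30 min, by less than 1 CPM.

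ITR1, which encodes the main inositol transporter of the plasma membrane, differed between the strains mostly at the start. At 0 h ITR1 had 2255, 2136 and 2405 CPM in MMTT libraries, against 707 and 894 CPM in SS libraries. By 45 min it had 307 and 334 CPM in MMTT, against 313, 339 and 301 CPM in SS. The groups were far apart at 0 h and overlapped at 45 min.

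The log2 fold change of ITR1, MMTT over SS, was 1.50 ± 0.18 at 0 h (SE, adjusted p = 7e-07) and 0.01 ± 0.17 at 45 min (adjusted p = 0.96, 95% interval from -0.33 to 0.37). It was called again, with MMTT higher, at 150 min (0.50), 230 min (0.62) and 340 min (0.49). The call at 150 min was lost without MMTT 150 min replicate 1 or SS 150 min replicate 2. The call at 340 min was lost without either MMTT library of that time, SS 340 min replicate 1 or SS 340 min replicate 2. At 510 min ITR1 had 250, 227 and 237 CPM in MMTT, against 249, 287 and 293 CPM in SS, with a log2 fold change of -0.22 that was not called.

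ITR1 was the only one of the 9 genes whose strain difference changed with time by the threshold of the interaction test, an adjusted p of 2.8e-05 against the limit of 0.001. Among all genes tested 14.8% passed that limit. Without SS 0 h replicate 2 the adjusted p of ITR1 was 0.001, and the call was lost. PSD1 reached 0.0013, INO4 0.0028 and OPI1 0.024, short of it.

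CHO1, which encodes phosphatidylserine synthase, was higher in MMTT at every time point. At 0 h CHO1 had 543, 540 and 474 CPM in MMTT libraries, against 257 and 255 CPM in SS libraries. At 510 min it had 158, 169 and 145 CPM in MMTT, against 123, 117 and 110 CPM in SS. Only INO1 and CHO1 of the 9 genes had all MMTT libraries above all SS libraries at all 9 time points, a pattern that 1.43% of the genes tested showed. The log2 fold change of CHO1 was 1.02 ± 0.14 at 0 h (SE, adjusted p = 5.5e-06) and 0.37 to 0.69 at the later times, all called. The call at 100 min, with an adjusted p of 0.025, was lost in 28 of the 49 fits that left out 1 library. The call at 45 min was lost without MMTT replicate 1 of that time (log2 fold change 0.25), at 150 min without MMTT replicate 2 or SS replicate 2, and at 230 min without MMTT replicate 1. With all 54 libraries the calls at 45, 100, 150, 230 and 510 min were lost, with adjusted p-values of 0.075 to 0.36.

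PSD1 encodes the mitochondrial phosphatidylserine decarboxylase, which makes phosphatidylethanolamine, and differed at both ends of the series. At 0 h PSD1 had 111, 117 and 85.0 CPM in MMTT libraries, against 64.1 and 47.7 CPM in SS libraries. At 510 min it had 93.9, 68.4 and 96.2 CPM in MMTT, against 48.3, 36.9 and 44.1 CPM in SS. The strains did not overlap at these times, and the log2 fold changes were 0.90 ± 0.20 (adjusted p = 0.0018) and 1.00 ± 0.17 (SE, adjusted p = 1.2e-05). From 45 min to 340 min they lay between -0.08 and 0.14 and were not called. The middle meiotic markers stood apart between the strains at both ends, with the values given above, and also from 45 min to 340 min, where PSD1 was not called. Their part in the PSD1 difference was not tested. The call at 0 h was lost without SS 0 h replicate 3 (adjusted p = 0.094), and the call at 510 min was kept whichever library was left out.

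The methyltransferases of the route to phosphatidylcholine were both called higher in MMTT in the average over time points. CHO2, the enzyme of the first methylation, had 296, 314 and 238 CPM in MMTT libraries at 0 h, against 157 and 141 CPM in SS libraries. The 2 groups did not overlap at that time, with MMTT above. Its log2 fold change was 0.92 at 0 h, 0.54 at 45 min, 0.51 at 70 min, 0.74 at 150 min and 0.66 at 340 min where it was called, and 0.35 to 0.41 elsewhere. Averaged over time points it was 0.54 ± 0.06 (SE, adjusted p = 2.3e-09), a call kept whichever library was left out. The single calls were not: at 0 h it was lost without SS replicate 3, at 45 min without MMTT replicate 1 or any SS replicate, and at 70 min without MMTT replicate 1 or 2 or SS replicate 2 or 3. The call at 150 min was lost without MMTT replicate 1, and at 340 min without MMTT replicate 2 or SS replicate 2 or 3.

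OPI3, which carries out the later methylations, was called higher in MMTT at 30 min and at 70 min. At 30 min OPI3 had 737, 1011 and 517 CPM in MMTT libraries, against 472 and 411 CPM in SS libraries. At 230 min it had 343, 308 and 411 CPM in MMTT, against 546, 475 and 377 CPM in SS, and the groups overlapped. The log2 fold changes were 0.77 ± 0.27 (SE, adjusted p = 0.022) and -0.40 ± 0.24 (SE, adjusted p = 0.25). The call at 30 min was lost without MMTT replicate 2 or either SS library of that time, and the call at 70 min without MMTT replicate 2 or SS replicate 3.

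Levels can be compared between genes only per length. Per kilobase of coding sequence at 0 h, INO1 was at 1695 ± 526 CPM per kb in MMTT and 341 ± 54.8 in SS, and OPI3 at 1141 ± 101 in MMTT and 909 ± 107 in SS (SD, n = 3 and n = 2). The highest of the 9 genes in SS at 0 h was OPI3 and in MMTT it was INO1. The lowest per kb was INO2 in MMTT, at 34.1 ± 9.55, and PSD1 in SS, at 37.2 ± 7.69.

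The regulators went the other way. INO2, encoding one activator subunit, had 12.3, 9.02 and 22.6 CPM in MMTT libraries at 30 min, against 31.9 and 26.2 CPM in SS libraries. The strains were apart there. At no single time point was INO2 called, with adjusted p-values of 0.097 to 0.68. The average over time points was -0.49 ± 0.15 on the log2 scale (SE, adjusted p = 0.0036). These are low counts, and the group at 230 min in SS spread from 4.03 to 26.2 CPM with replicate 1 at the low end. INO2 was called lower in MMTT at 30 min and at 70 min without that library and MMTT 45 min replicate 1. That pair was chosen after seeing the data. Neither library was from 30 min or 70 min, so the libraries compared there were unchanged and these calls are no added evidence.

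INO4, encoding the partner of Ino2, was called lower in MMTT at 30 min, 45 min, 70 min, 100 min and 510 min. At 100 min INO4 had 79.5, 74.3 and 59.2 CPM in MMTT libraries, against 103, 153 and 159 CPM in SS libraries. There the log2 fold change was -0.96 ± 0.17 (SE, adjusted p = 6.2e-05), the largest of its time points. The strains were apart at 100 min and overlapped at some of the other time points. The call at 510 min, -0.42 with an adjusted p of 0.042, was lost in 27 of the 49 fits that left out 1 library. The call at 30 min was lost without SS replicate 2, at 45 min without MMTT replicate 3 and at 70 min without SS replicate 1.

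OPI1, encoding the repressor, overlapped between the strains at 0 h and was lower in MMTT at 30 min. At 0 h OPI1 had 349, 333 and 356 CPM in MMTT libraries, against 299 and 375 CPM in SS libraries. At 30 min it had 128, 122 and 147 CPM in MMTT, against 246 and 238 CPM in SS. The groups overlapped at 0 h and were apart at 30 min. The log2 fold change was 0.04 ± 0.26 at 0 h (SE, adjusted p = 0.94) and -0.87 ± 0.26 at 30 min (adjusted p = 0.0076), and it was called lower at 70 min and 100 min too. These calls were lost without SS replicate 2 at 30 min, without SS replicate 1 at 70 min and without replicate 1 of either strain at 100 min. At 230 min it was 0.44, where SS replicate 1 had 54.3 CPM, against 179 and 155 CPM in the other SS libraries. Without that library and MMTT 45 min replicate 1, a pair chosen after seeing the data, the value was 0.09. At 510 min OPI1 was not called in the 49 libraries (log2 fold change -0.54, adjusted p = 0.062).

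**Figure D2:**
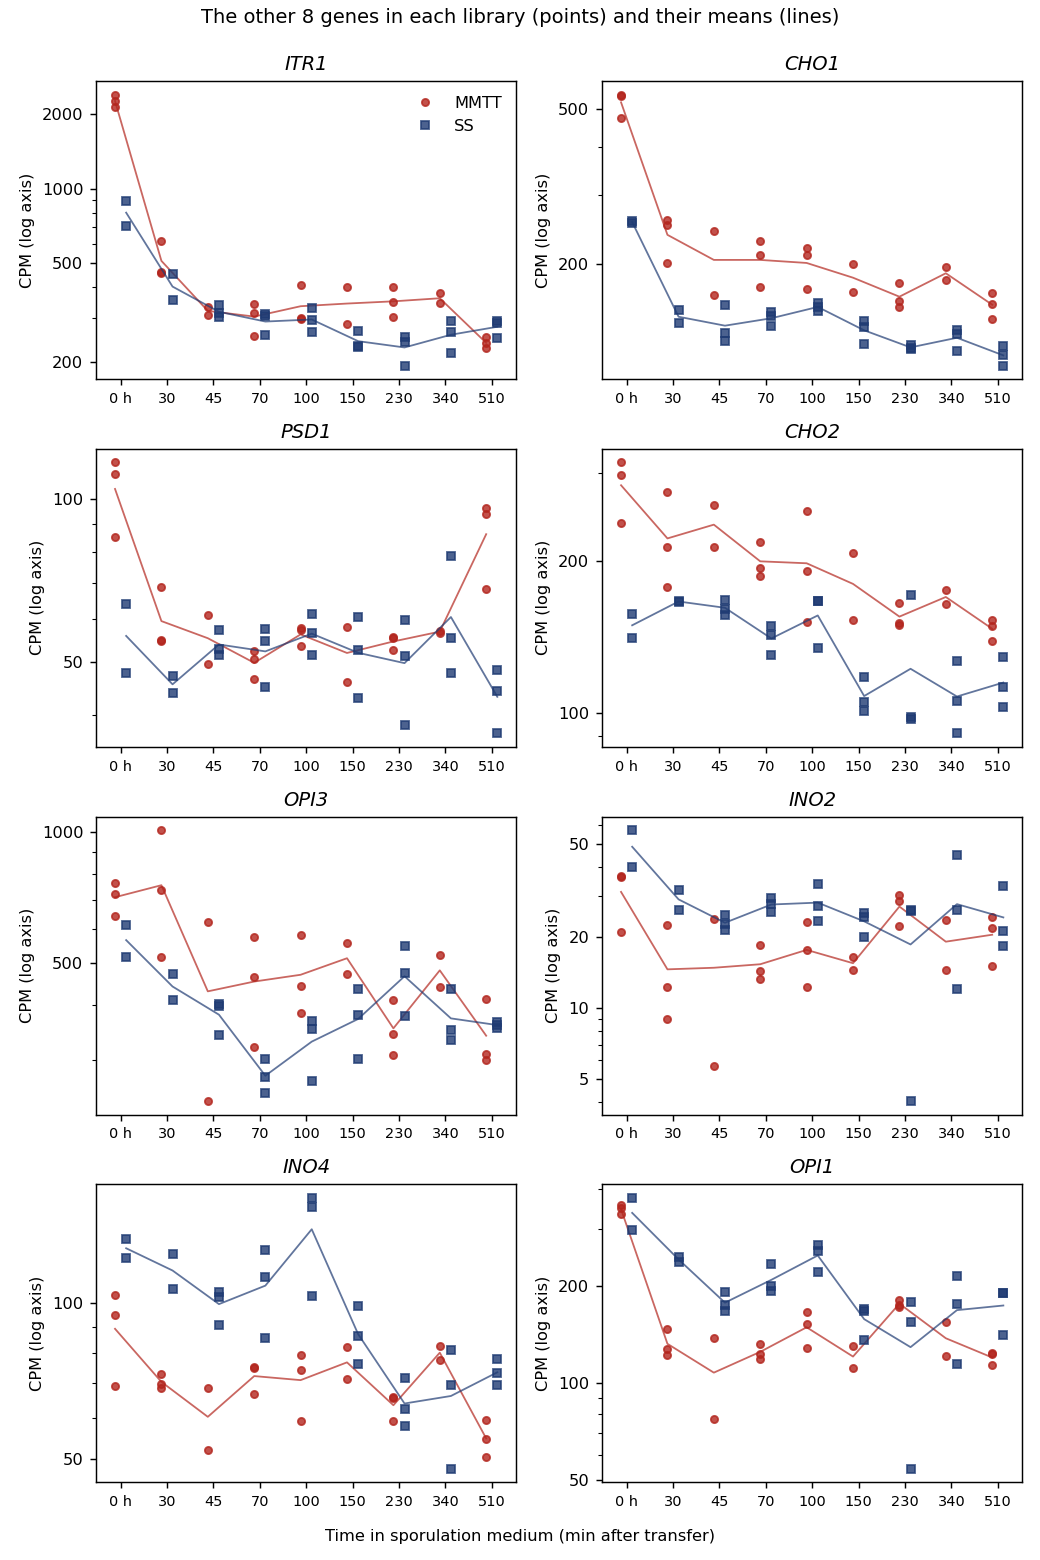
The other 8 genes in CPM with TMM scaling (log axes, each with its own range) against time in sporulation medium, 1 point per library, MMTT as red circles and SS as blue squares, with lines through the group means. In CHO1 every MMTT point lies above every SS point of the same time, and in CHO2 the MMTT mean lies above the SS mean throughout. ITR1 begins apart, meets by 45 min and is apart again at 150, 230 and 340 min with MMTT higher. INO4 lies lower in MMTT up to 100 min.

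Counted together, 5 of the 9 genes were called at 0 h, all higher in MMTT, beside 14.8% of all genes tested. At 30 min 3 were called higher and 2 lower (39.9% of all genes called), at 45 min 3 and 1 (25.9%), at 70 min 4 and 2 (36.4%), and at 100 min 2 and 2 (22.8%). Later, 4 were called higher at 150 min (31.5%), 3 at 230 min (20%) and 4 at 340 min (23.4%), with 0 lower, and 3 higher and 1 lower at 510 min (42.2%). At 0 h the median log2 fold change of the 9 genes was 0.90, against 0.02 over all genes, and at 510 min it was -0.08, against -0.05.

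In the average over time points all 9 genes were called, 6 higher and 3 lower in MMTT. Since 72% of all genes tested were called there, the count itself says little. Of all 6031 genes, 2120 were higher and 2225 lower in MMTT. The 6 enzyme and transporter genes were all on the higher side and the 3 regulator genes all on the lower side, with values of 0.26 to 2.08 and -0.49 to -0.42. Only INO1 differed by more than 1 on the log2 scale.

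**Figure D3:**
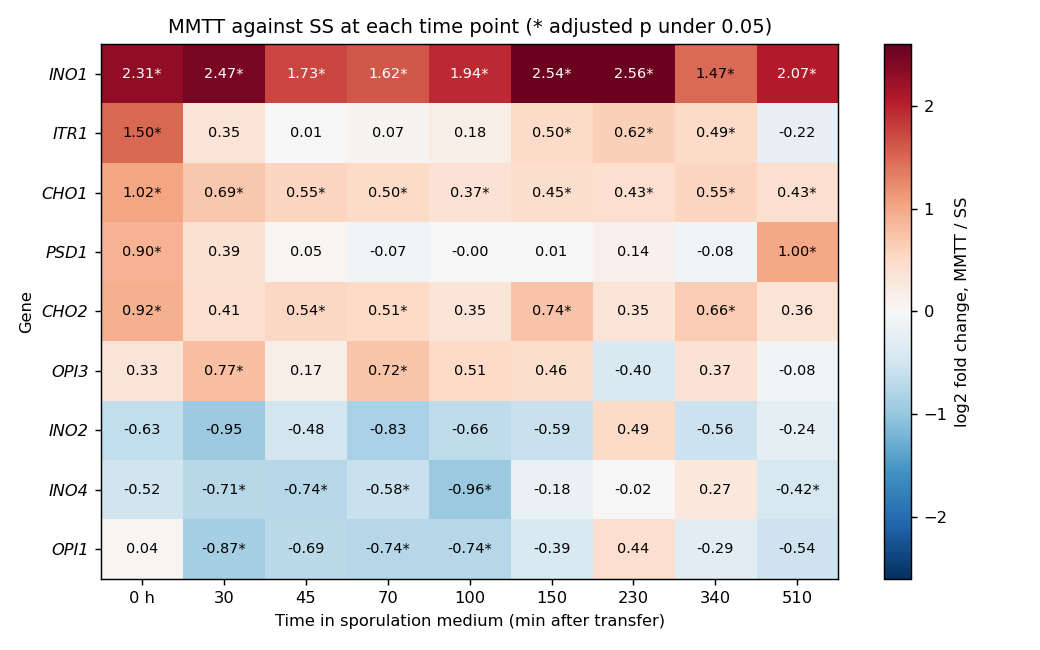
Log2 fold change of MMTT over SS for the 9 genes (down) at each time point (across), with a star where the adjusted p was under 0.05. INO1 is starred at all 9 time points with 1.47 to 2.56, at 0 h ITR1, CHO1, CHO2 and PSD1 are starred too with 1.50, 1.02, 0.92 and 0.90, and INO4 and OPI1 are negative from 30 min to 100 min.

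Within each strain the genes were then followed against 0 h. Over the 8 later times, 8 of the 9 genes changed in MMTT, all but INO2, beside 57.4% of all genes tested. In SS 7 changed, all but PSD1 and INO2, beside 48.5%. Some calls were lost without 1 library: OPI3 in MMTT without 30 min replicate 2, INO4 in MMTT without 0 h replicate 2 or 3 or 510 min replicate 1 or 3, and OPI1 in SS without 0 h replicate 3. With all 54 libraries CHO2 in SS had an adjusted p of 0.19. All these comparisons share the 0 h libraries of their strain. Whether the genes moved differently in the 2 strains is answered only by the interaction test above.

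ITR1 moved the most. It was lower at 30 min than at 0 h with a difference on the log2 scale of -2.14 ± 0.17 in MMTT (adjusted p = 2e-08) and -1.01 ± 0.18 in SS (SE, adjusted p = 0.00024). At 510 min the values were -3.25 in MMTT and -1.53 in SS. In MMTT the p-value of ITR1 over time ranked 4 among 6419 genes. From the highest to the lowest group mean ITR1 spanned 9.52-fold in MMTT and 3.51-fold in SS.

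At 30 min 5 genes were lower than at 0 h in MMTT and 0 higher (ITR1, CHO1, PSD1, INO2 and OPI1), beside 37.5% of all genes called. In SS ITR1 and CHO1 were lower and 0 genes higher, beside 23.2%. INO1 was not among them, with log2 fold changes of -0.09 ± 0.30 in MMTT and -0.27 ± 0.24 in SS (SE). The call of INO2 in MMTT was lost without 0 h replicate 1 or 3 or 30 min replicate 1 or 2. INO1 reached -2.20 in MMTT and -1.50 in SS at 70 min.

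At 510 min 7 genes were lower than at 0 h in MMTT, beside 45.4% of all genes called, and 6 in SS, beside 42.3%, with 0 higher in either strain. PSD1 and INO2 were the exceptions in MMTT, PSD1 with a log2 fold change of -0.27 ± 0.15 (SE, adjusted p = 0.14). INO1 was then at -0.93 ± 0.30 in MMTT and -0.68 ± 0.22 in SS (SE, adjusted p = 0.015 in both strains). That call of INO1 was lost in MMTT without 0 h replicate 2, and in SS without 0 h replicate 2 or 510 min replicate 1. In SS the call of OPI3 was lost without 0 h replicate 3, and that of OPI1 without 0 h replicate 3 or 510 min replicate 1.

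The time courses of INO1 and the others can be set side by side by their group means of log2 CPM. Over the 18 groups the Pearson r with INO1 was 0.71 for CHO2, 0.70 for CHO1, 0.63 for OPI3, 0.60 for PSD1 and 0.55 for ITR1, and -0.10 for OPI1, -0.23 for INO2 and -0.44 for INO4. This order includes the strain difference itself, and it changed within the strains, over 9 groups each. Within MMTT the r was 0.67 for ITR1, 0.66 for PSD1, 0.57 for OPI1, 0.56 for OPI3, 0.55 for CHO1, 0.45 for INO2, 0.29 for CHO2 and 0.20 for INO4. Within SS it was 0.70 for OPI3 and ITR1, 0.51 for INO2, 0.44 for CHO1 and OPI1, 0.23 for CHO2, 0.06 for INO4 and -0.08 for PSD1. The sign of r thus differed between all groups and either strain alone for the 3 regulators. Of 5227 genes with a symbol, the most similar to INO1 over 18 groups were PRE10 (0.92), PRE2 (0.92), MCH1 (0.91), CAB1 (0.90) and PCP1 (0.89). PRE10 and PRE2 encode subunits of the core proteasome and CAB1 encodes pantothenate kinase. These are descriptions over group means, with no test, and those over 18 groups include the strain difference.

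Other genes of lipid metabolism were taken from 6 lists of 52 genes, all tested. Averaged over time points, 17 were higher in MMTT, 25 lower and 10 not called, with a median log2 fold change of -0.09, against -0.01 over all genes tested. The counts of each list below stand beside 72% of all genes called, 2120 higher and 2225 lower of 6031, and shares near that are no result about a list. Of the 10 genes for inositol and its phosphorylated lipids, 0 were higher and 8 lower. INM1, an inositol monophosphatase that acts after Ino1, was at -0.71 ± 0.09, and the phosphoinositide kinase genes STT4 and MSS4 were at -0.33 ± 0.06 and -0.29 ± 0.05 (SE). INO1 and INM1, which encode successive enzymes of inositol synthesis, thus differed in opposite directions.

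Of 14 genes for phosphatidic acid and CDP-diacylglycerol, 6 were higher in MMTT, 4 lower and 4 not called. AYR1, a reductase of phosphatidic acid synthesis, was at 0.69 ± 0.05, and PAH1, the phosphatidate phosphatase, at -0.65 ± 0.10 (SE). LPP1, a lipid phosphate phosphatase, was at 0.54 ± 0.09 (SE). PAH1 was at -1.22 at 30 min (adjusted p = 0.0016), but its strain difference was not shown to vary with time (adjusted p of the interaction 0.46).

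Of 8 Kennedy pathway and transport genes, 2 were higher in MMTT and 4 lower. HNM1, the choline transporter, was at 0.73 ± 0.07 and CPT1, the cholinephosphotransferase, at 0.39 ± 0.05 (SE). PSD2, the phosphatidylserine decarboxylase outside mitochondria, was at -0.44 ± 0.05 (SE), the opposite direction of PSD1 at 0.26 ± 0.06 (SE). HNM1 was at 1.32 at 0 h and was at 0.36, not called, at 510 min, with an adjusted p of the interaction of 0.034, short of the limit of 0.001.

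Of 5 cardiolipin genes, 4 were higher in MMTT and PGS1 was lower. TAZ1, which remodels cardiolipin, was at 0.73 ± 0.06, GEP4, the phosphatidylglycerophosphate phosphatase, at 0.61 ± 0.07, and CLD1, a cardiolipin deacylase, at 0.36 ± 0.05 (SE). For TAZ1 the difference changed with time (adjusted p of the interaction 3.8e-07) and reached a log2 fold change of 2.40 at 510 min, when the stage markers also stood apart, and their part in it was not tested.

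Of 7 fatty acid genes, 3 were higher in MMTT and 4 lower, with the elongase gene ELO1 at 0.37 ± 0.07, the fatty acid synthase gene FAS1 at 0.28 ± 0.07 and the desaturase gene OLE1 at -0.32 ± 0.11 (SE). Of 8 other regulators, 2 were higher and 4 lower. HAC1 and IRE1, the transcription factor and the sensor of the unfolded protein response, were at 0.50 ± 0.08 and -0.45 ± 0.09 (SE), and SIN3, the scaffold of a histone deacetylase complex, at -0.41 ± 0.08 (SE).

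**Figure D4:**
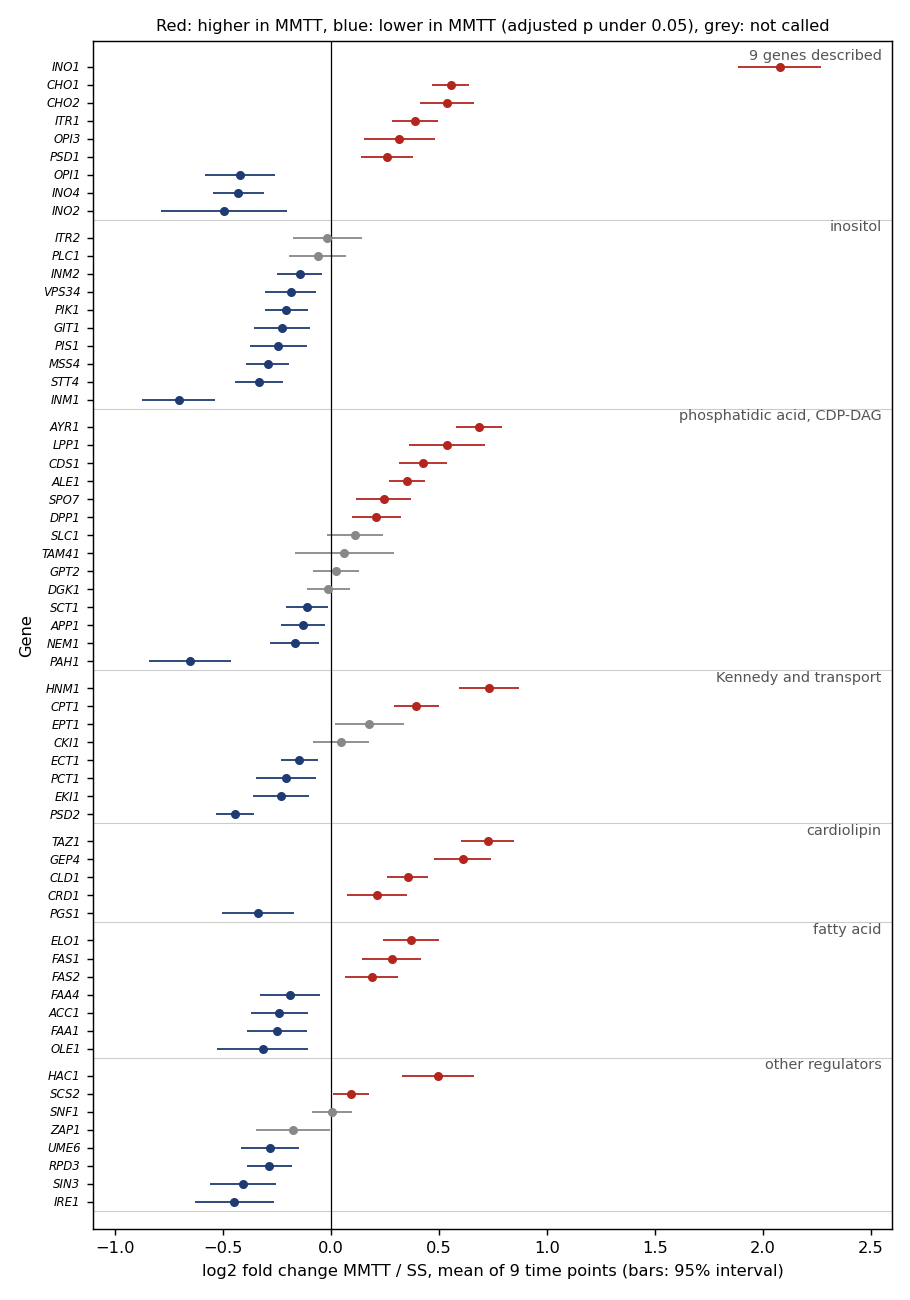
Log2 fold change of MMTT over SS averaged over 9 time points for the 9 genes and the 52 listed genes, grouped by list, with bars for 95% intervals. INO1 at 2.08 is the only gene beyond 1 in either direction, and the inositol list lies at or below 0.

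The upstream element was also set beside the strain difference outside the 9 genes. Of 23 other tested genes with CATGTGAAA upstream, 52.2% were higher in MMTT and 26.1% lower, with a median log2 fold change of 0.19, against 33.5% higher, 38.8% lower and a median of -0.03 for the 5653 genes without it. CATGTG, with the longer form included, was found upstream of 394 other tested genes, with 35.3% higher and 34.8% lower in MMTT and a median of 0.01. These are descriptions of counts, with no test. Among the listed genes CDS1, EKI1, CPT1, HNM1 and FAS2 held CATGTGAAA, with averaged log2 fold changes of 0.43, -0.23, 0.39, 0.73 and 0.19.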

How the data were processed

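RNA was sequenced from MMTT and SS yeast at 9 time points with 3 replicates. Whole-number read counts for each gene were deposited. Per the methods, they removed ribosomal RNA reads, aligned the rest to S288c with STAR and counted them in a Snakemake workflow from a strand-specific kit; versions, build, annotation and strand setting are not given in the sources used here. Of 6571 rows, 5895 were found in the R64 annotation and 676 were not. Libraries were assigned by their labels.

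The 49 libraries kept by the study were fitted with edgeR 4.0.16 in R 4.3.3, with TMM factors, 1 mean per group and the robust quasi-likelihood test, adjusted by Benjamini-Hochberg over all genes tested. Between strains all 18 groups shared 1 fit, which also lends its spread to the 5 groups of 2 libraries. The fits of a single strain kept genes that reached 0.5 CPM in 3 or more of its libraries. Calls were at an adjusted p under 0.05, and under 0.001 for the interaction. Standard errors were approximated from the size of the fitted log2 difference and its F statistic, and 95% intervals from them. The log2 CPM values use a prior count of 2. DESeq2 1.42.0 was an alternative, as were all 54 libraries, other scaling, no filter, a replicate block, fold thresholds and leaving out each library. Upstream windows were read with Python 3.11.15 and near copies sought with blastn 2.17.0. The fits were also run on simulated independent counts with known changes at 1 time point. That setting held no shared cultures or outlying libraries. No replicate pair agreed within counting error.

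The 9 genes and the lists were chosen with earlier results of these data known. All 9 are named, with up to 3 called genes per list of largest averaged difference and the 5 genes most like INO1. CDS1, EKI1 and FAS2 are named for their upstream match, and PGS1 as the lone lower gene of its list, after their values were seen.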

Additional observations from a re-analysis of the deposited data

Results flagged for a closer look

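ITR1, the inositol transporter gene, changed over time differently in the strains, with an adjusted p of 2.8e-05 for the strain by time interaction (edgeR quasi-likelihood test, Benjamini-Hochberg). The fall from 0 h was larger in MMTT, where all 3 libraries at 0 h stood above all SS libraries. The levels met by 45 min. ITR1 was called higher in MMTT again at 150, 230 and 340 min, with log2 fold changes of 0.50, 0.62 and 0.49. The calls at 150 and 340 min were lost without some single libraries. SS had 2 libraries at 0 h, and the interaction call was lost without SS 0 h replicate 2.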

How the results depend on the processing

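For the 9 genes, 0 of the values reversed. Requiring in addition an absolute log2 fold change over 2 left INO1 alone, so that 1 gene was called at 0 h, 30 min, 150 min, 230 min, 510 min and in the average, and 0 at 45 min, 70 min, 100 min and 340 min. Over 1 on that scale, 3 genes were called at 0 h and 1 at each later time and in the average. Under both thresholds 0 genes of each list were called in the average. Against 0 h, a change over 2 left 1 gene in MMTT at 30 min and 1 at 510 min, and 0 in SS at both times, and a change over 1 left 4 in MMTT at 510 min, 1 in SS at 30 min and 2 in SS at 510 min. With all 54 libraries 2 genes were called at 150 min and 2 at 510 min. The interaction was called for 3 genes by DESeq2 and for 4 at an adjusted p under 0.05. Without MMTT 45 min replicate 1 and SS 230 min replicate 1, chosen after seeing the data, 2 genes were called at 45 min and 2 for the interaction. The cause of these differences was not tested, except that a stricter threshold calls fewer.

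Leaving out 1 library at a time gave 3 to 6 genes called at 0 h (3 without SS 0 h replicate 3), 2 to 7 at 30 min (2 without SS 30 min replicate 2), 2 to 6 at 45 min (2 without MMTT 45 min replicate 1), 4 to 7 at 70 min, 2 to 5 at 100 min (2 without replicate 1 of either strain) and 2 to 4 at 150 min (2 without MMTT replicate 1 or SS replicate 2). It gave 2 to 4 at 230 min, 2 to 4 at 340 min (2 without MMTT replicate 2 or SS replicate 2), 3 to 5 at 510 min and 9 in the average. For the interaction it gave 1 to 2, with 2 without any 1 of 9 libraries: MMTT 0 h replicate 3, 150 min replicate 2 and 510 min replicate 2, and SS 100 min replicate 1, 150 min replicate 1, 230 min replicates 1 and 2 and 340 min replicates 1 and 2. A group left with 1 library is assumed to vary like the others. Within strains it gave 7 to 9 genes in MMTT and 6 to 7 in SS.

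Deviations from the group means had mean correlations for equal replicate numbers of 0.04 in MMTT, -0.02 in SS and -0.07 across strains. Unequal numbers were not set beside these, so whether equal numbers shared a culture is not settled. A replicate block left all 23 counts within 1.5 times of the value given. INO2 ranged from 4.03 to 57.2 CPM over the libraries used, and the reason for its spread was not tested.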
